A study of Homo sapiens with 6 samples.

Results

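The tripartite motif (TRIM) family is a large group of proteins built from a RING finger, B-box zinc fingers and a coiled coil, followed by a variable C-terminal part. Its genes were taken here as the rows of the count table whose Entrez identifier maps to a protein-coding symbol of the form TRIM plus a number, with a letter suffix allowed and TRIM28 left out. There were 70 such genes among 23459 rows, and 35 of the 70 passed the filter on low counts and were tested, beside 12079 genes tested in all. RefSeq (GRCh38.p14) lists 74 protein-coding genes that meet the same rule, and the other 4 were not analysed here.

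Most TRIM proteins act as E3 ubiquitin ligases: the RING finger recruits an E2 enzyme and the C-terminal domain picks the substrate. Some capture viral capsids or silence viral genomes, others attach ubiquitin chains to sensors of viral RNA and DNA or to their adaptors, and a further branch regulates chromatin, muscle filaments or microtubules. Many members of the antiviral branch are themselves induced by interferon. TRIM21 is also a receptor for antibody in the cytosol.

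The samples were 3 IRF4-overexpressing and 3 control libraries of Raji, an established human Burkitt's lymphoma line. Raji is described in the labels as derived from germinal centre B cells. Both groups received a lentivirus for 5 days, followed by 7 days of puromycin (3 µg/ml) to keep the infected cells. The virus of the first group carried human IRF4 cDNA, a transcription factor gene of activated B cells and plasma cells, and that of the control group was empty. The labels do not state whether replicates were separate infections or cultures, so the p-values reflect how far these libraries spread, and that spread may be technical. The question addressed here is how raised IRF4 changes TRIM gene expression in a germinal centre-derived line.

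Library totals ran from 33588248 to 46210702 counts in IRF4-overexpressing cells and from 27681979 to 41510523 in control cells. IRF4 itself had 5162, 4462 and 6054 counts in IRF4-overexpressing replicates 1, 2 and 3, against 41, 37 and 50 in control replicates 1, 2 and 3. All 7 B cell markers were tested, and together they summed to 2287 to 2529 CPM (counts scaled to a common library size after TMM normalisation) in IRF4-overexpressing and 2365 to 2544 CPM in control libraries. Of the 7, 5 had log2 fold changes below 0 and 2 above (median -0.36, all genes 0.01), and 0 passed (3.16% of all tested genes did). MS4A1 lay higher in every IRF4-overexpressing library (1 of 7, 14.3%, against 13.5% of all tested genes). The 25 markers of T or NK, myeloid, epithelial or kidney, and mesenchymal cells summed to 63.8 to 69.2 CPM and 45.5 to 56.9 CPM, of which VIM alone gave 53.4 to 60.6 and 42.1 to 52.7 CPM, and 9 of the 25 had no counts in any library. Of these 25, 6 were tested, and all 6 had log2 fold changes above 0 (median 0.84), as did 6161 of all 12079 tested genes. Of the 6, 4 did not overlap between the groups, lying higher in IRF4-overexpressing cells (66.7%, against 13.5% of all tested genes). The myeloid gene ITGAM passed, at 2.48 CPM in IRF4-overexpressing and 0.652 CPM in control cells. It was 1 of the 6 (16.7%, against 2.98% of all tested genes called higher). CSF1R had 2.22 and 0.427 CPM and COL1A1 2.21 and 0.812 CPM, and neither passed (edgeR adjusted p = 0.0846 and 0.192). Their part in the TRIM results was not tested. Libraries of the same group also differed along an axis. It was drawn after the group means were removed, so by construction a library's score on it cannot follow the groups. The sides of the axis, set by the sign of that score, are partly mixed with group. Control replicates 2 and 3 shared a side with IRF4-overexpressing replicate 1, and control replicate 1 shared the opposite side with IRF4-overexpressing replicates 2 and 3. Once the group means were removed, 74.3% of the variance in log2 CPM lay along the axis.

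Sequences are shown first for the promoters in which an interferon-type motif was found, because these motifs are what interferon-regulatory factors are known to read. RefSeq promoters (GRCh38.p14, 250 bases before to 50 after the annotated start) matched 56 of the 70 genes, and TRIM22 and TRIM55 were not among them. They were searched on both strands for the core of the interferon-stimulated response element, which is GAAA, then 2 bases of any kind, then GAAA, and for the ETS-IRF composite element, which is GGAA, then 2 bases of any kind, then GAAA. Matches of the 2 patterns can overlap. The response element core occurred in 26.9% (7 of 26) of the promoters of tested TRIM genes, against 3.08% (293 of 9502) of the promoters of all tested genes. The composite element occurred in 11.5% (3 of 26) and in 2.72% (258 of 9502). A match is a description of letters, not of a bound site. The promoter of TRIM69, a gene that rose, reads 5′ to 3′ on the gene's strand as follows, from chr15:44736278-44736577 (plus strand), with the response element core in capitals, here on the opposite strand.
TRIM69: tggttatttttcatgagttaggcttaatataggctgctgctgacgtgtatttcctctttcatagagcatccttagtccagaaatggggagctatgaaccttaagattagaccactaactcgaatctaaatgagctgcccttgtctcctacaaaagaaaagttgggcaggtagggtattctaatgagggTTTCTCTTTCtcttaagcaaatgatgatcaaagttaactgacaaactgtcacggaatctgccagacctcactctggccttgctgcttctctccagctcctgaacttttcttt

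The next stretches come from genes of the antiviral and signalling branches and show the match in capitals with 5 bases on each side, on the gene's strand. They are given so that promoters with like letters can be set beside unlike values.
TRIM5 (response element core, chr11:5685087-5685106, minus strand): ttatcTTTCACTTTCctgcc
TRIM34 (response element core, chr11:5624906-5624925, plus strand): aaaaaTTTCACTTTCatttc
TRIM34 (composite element, chr11:5624881-5624900, plus strand): cccctTTTCTCTTCCtgaca
TRIM21 (response element core, chr11:4393671-4393690, minus strand): gagcgGAAACTGAAAgtgaa
TRIM14 (response element core, chr9:98119234-98119253, minus strand): cgaggTTTCGGTTTCccttg
TRIM26 (response element core, chr6:30213586-30213605, minus strand): cctgaTTTCAGTTTCcattt
TRIM25 (composite element, chr17:56914038-56914057, minus strand): ctaggTTTCGTTTCCtcggc
TRIM56 (composite element, chr7:101085483-101085502, plus strand): ttttgTTTCTTTTCCaggca
TRIM5 and TRIM34 share TTTCACTTTC, and TRIM21 and TRIM26 each hold a second overlapping match. TRIM16 and TRIM44 were the other tested genes with the core. Of the 7 tested genes with a core in this window, TRIM69 passed the test of expression and the other 6 did not. This is 14.3%, against 15.4% called higher (45 of 293) among all tested genes with the core.

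With IRF4 raised, 3 of the 35 tested TRIM genes rose and 0 fell by edgeR's quasi-likelihood test (adjusted p under 0.05 over all 12079 genes). The genes that rose were TRIM22, an interferon-induced antiviral ligase, TRIM69, an interferon-induced restrictor of vesicular stomatitis virus, and TRIM55, also called MURF2, a ligase of muscle filaments. The share was 8.57%, against 2.98% of all tested genes called higher 0.182% called lower and 3.16% called in either direction. At an unadjusted p under 0.05 there were 5 of 35 genes (14.3%), against 19.5% of all tested genes. The median log2 fold change of the 35 was -0.03 (all genes 0.01), with 16 above 0 and 19 below. In bulk RNA, more cells that express a gene and more RNA per cell cannot be told apart. The same 3 genes were called higher, and 0 lower, by DESeq2, by limma-voom, with the other scalings and filters, and with a term for the library axis. With the replicate number as a block none of the 3 passed, at log2 fold changes of 2.18 for TRIM22 and 0.81 for TRIM69 and TRIM55 (edgeR adjusted p = 0.0729, 0.173 and 0.300).

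**Figure D1:**
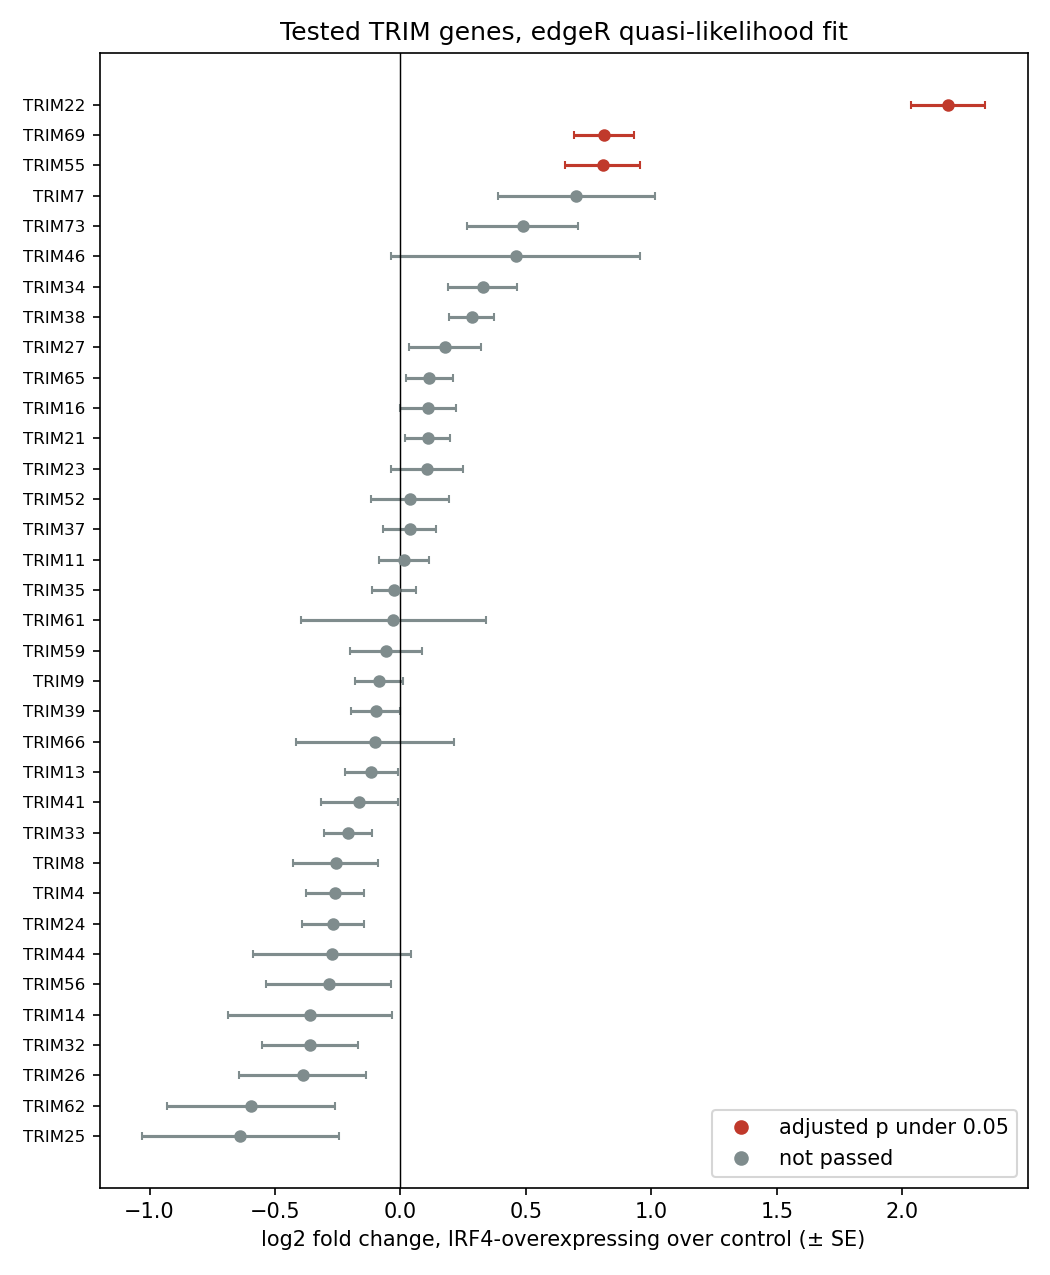
Log2 fold change (IRF4-overexpressing over control, horizontal axis) with its SE for each of the 35 tested TRIM genes, one per line. TRIM22 stands at 2.18, TRIM69 and TRIM55 at 0.81, and the remaining genes, none of which passed, lie between -0.64 and 0.70.

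TRIM22 showed the largest change of the tested members. It had 43.0, 57.0 and 56.4 CPM in IRF4-overexpressing replicates 1, 2 and 3, against 12.5, 11.5 and 10.4 CPM in control replicates 1, 2 and 3. Every IRF4-overexpressing library lay more than 3-fold above every control library. The means were 52.1 ± 7.91 and 11.5 ± 1.05 CPM (SD, n = 3 each), a rise of 4.54-fold (log2 fold change 2.18 ± 0.15 SE, with an edgeR adjusted p = 9.4e-04). It passed without each library in turn (log2 fold change 2.12 to 2.30). Taken on each side of the library axis alone, mean log2 CPM differed by 1.97 and 2.17, each side with a single library of 1 group. Per kilobase of the deposited gene width, TRIM22 averaged 11.04 CPM in IRF4-overexpressing and 2.43 CPM in control cells.

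TRIM69 had 8.55, 9.40 and 8.02 CPM in IRF4-overexpressing replicates 1, 2 and 3, against 5.18, 5.02 and 4.60 CPM in control replicates 1, 2 and 3. The groups did not overlap, and the rise was 1.75-fold (log2 fold change 0.81, SE 0.12, edgeR adjusted p = 0.0168). Its promoter is the one printed in full above. TRIM55 had 2.91, 3.32 and 3.05 CPM, against 1.94, 1.53 and 1.81 CPM, from 100, 123 and 147 counts against 78, 41 and 66. These groups did not overlap either, and the rise was 1.75-fold (log2 fold change 0.81, SE 0.15, edgeR adjusted p = 0.0394). Both calls were lost in 5 of the 6 fits that left out a library, all but the fit without IRF4-overexpressing replicate 1 (edgeR adjusted p = 0.0544 to 0.111 for TRIM69 and 0.0908 to 0.173 for TRIM55), while their log2 fold changes stayed between 0.72 and 0.88. Within the sides of the axis TRIM69 differed by 0.82 and 0.74, and TRIM55 by 0.79 and 0.70. Of the other genes of muscle TRIM proteins, TRIM54 and TRIM63 had no counts in any library and TRIM72 had 3 counts in a single library.

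**Figure D2:**
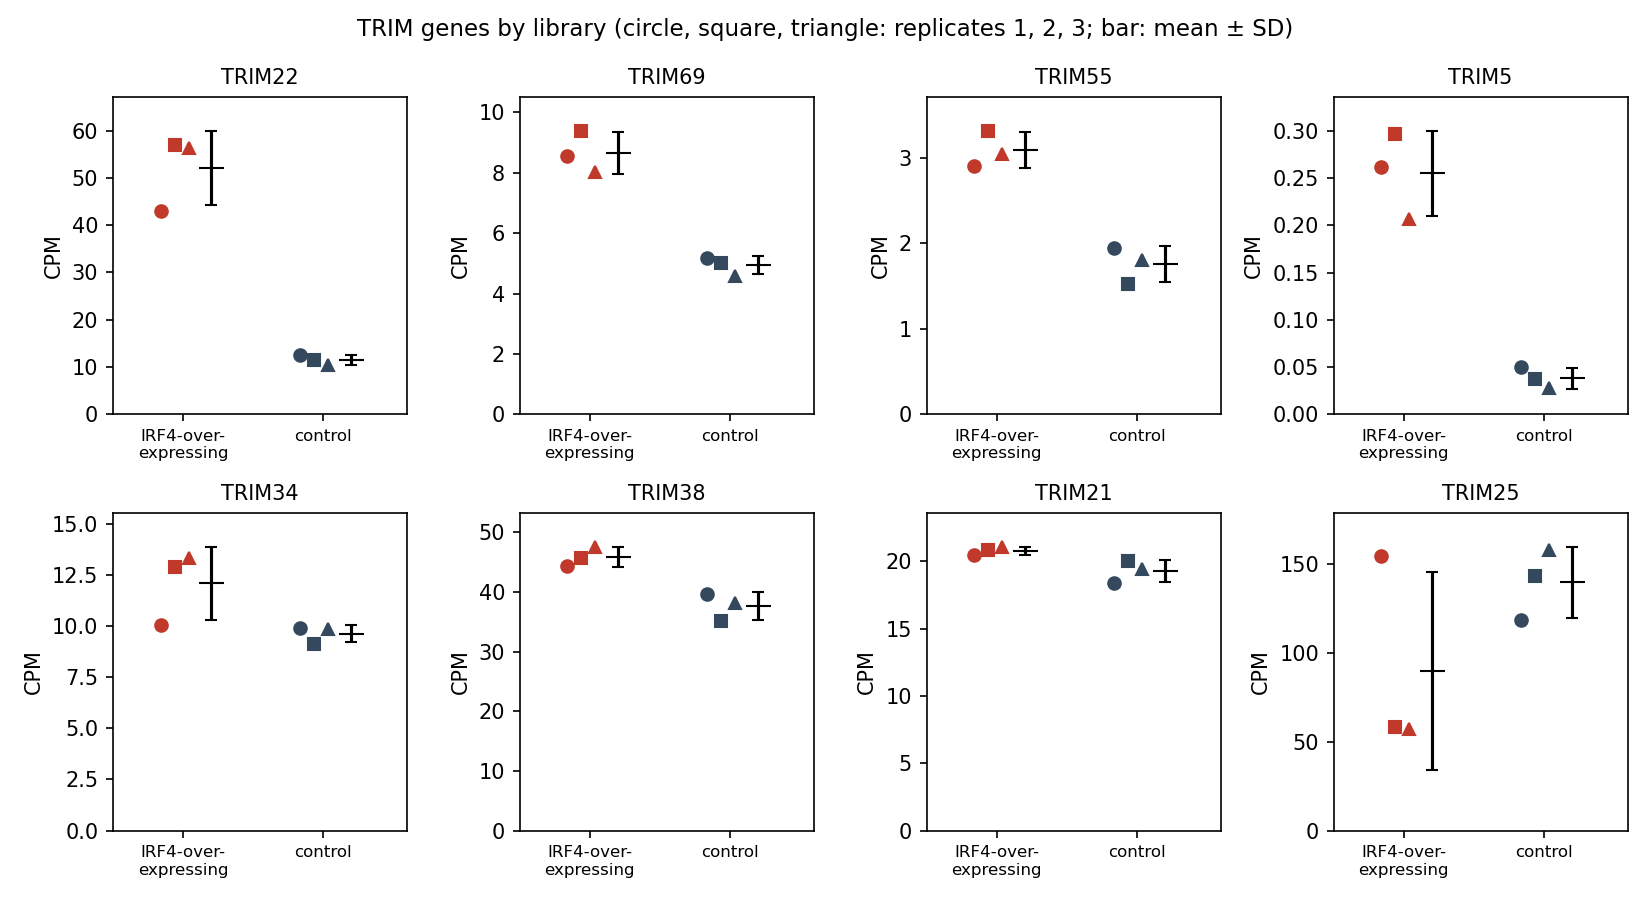
CPM of 8 TRIM genes in each IRF4-overexpressing library (left, red) and each control library (right, dark), with the mean and SD of each group as a bar beside the points. TRIM22, TRIM69, TRIM55 and TRIM5 separate clearly, TRIM34, TRIM38 and TRIM21 separate by small margins, and the IRF4-overexpressing values of TRIM25 run from 56.9 to 154 CPM.

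The closest relatives of TRIM22 lie beside it. In RefSeq order, TRIM5, TRIM6, TRIM34 and TRIM22 are consecutive TRIM genes of chromosome 11, flanked by olfactory receptor genes, and their products restrict retroviruses or other viruses. TRIM5, which recognises retroviral capsids, was too weak to be tested, with 9, 11 and 10 counts in IRF4-overexpressing replicates 1, 2 and 3, against 2, 1 and 1 counts in control replicates 1, 2 and 3. All 3 IRF4-overexpressing libraries were higher (0.207 to 0.297 CPM, against 0.0274 to 0.0498 CPM). The ratio of summed counts, scaled by library size, was 6.49, with an exact 95% interval of 2.29 to 25.4 that covers counting error only. In a fit without the filter TRIM5 did not pass (log2 fold change 2.59, edgeR adjusted p = 0.0558). Its level stayed far below that of TRIM22 in both groups, at 0.0618 and 0.00923 CPM per kilobase.

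TRIM6 had 1 count in a single IRF4-overexpressing library and 0 in the other 5. TRIM34, which restricts lentiviruses together with TRIM5, had 10.1, 12.9 and 13.4 CPM in IRF4-overexpressing replicates 1, 2 and 3, against 9.93, 9.15 and 9.87 CPM in control replicates 1, 2 and 3. The groups did not overlap, though IRF4-overexpressing replicate 1 stood just above the highest control, and the gene did not pass (log2 fold change 0.33, SE 0.14, edgeR adjusted p = 0.253). Within the sides of the axis it differed by 0.08 and 0.40. It passed once IRF4-overexpressing replicate 1 was left out, at 0.43 (edgeR adjusted p = 0.00973), in a fit that partly mixes the groups with the library axis. The readthrough gene TRIM6-TRIM34 held 98.0% to 100% of the count of TRIM34 in each library, 0 to 7 counts fewer, so these rows cannot be read as separate measurements. TRIM34 and TRIM5 also overlap in RefSeq.

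Beyond this cluster, the antiviral genes TRIM21, TRIM25 and TRIM56 did not pass. TRIM21 had 20.5, 20.8 and 21.1 CPM in IRF4-overexpressing replicates 1, 2 and 3, against 18.4, 20.01 and 19.4 CPM in control replicates 1, 2 and 3. The groups did not overlap, but the difference was small (log2 fold change 0.11, SE 0.09, edgeR adjusted p = 0.47). TRIM25, the ligase best known for ubiquitinating the RNA sensor RIG-I, had 154, 58.5 and 56.9 CPM, against 118, 143 and 158 CPM. IRF4-overexpressing replicate 1 stood apart from replicates 2 and 3, and TRIM25 did not pass, at -0.64 on the log2 scale (SE 0.39, edgeR adjusted p = 0.367). This value was -1.29 without IRF4-overexpressing replicate 1, where it passed (edgeR adjusted p = 1.83e-04), and between -0.73 and -0.39 without any other library. TRIM56, linked to the cGAS and STING pathway, had 48.9, 28.8 and 31.3 CPM, against 32.9, 51.1 and 48.8 CPM, and its groups overlapped (log2 fold change -0.29, SE 0.25). It stood at -0.57 without IRF4-overexpressing replicate 1, where it passed (edgeR adjusted p = 0.0276), and at -0.08 with the axis term, where it did not.

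Among the TRIM genes that act on innate signalling, 0 of the 8 tested passed (3.16% of all tested genes did), with 4 above 0 and 4 below. TRIM38, a brake on Toll-like receptor and TNF signalling, had the smallest p of them: 44.3, 45.7 and 47.6 CPM in IRF4-overexpressing replicates 1, 2 and 3, against 39.7, 35.2 and 38.2 CPM in control replicates 1, 2 and 3. The groups did not overlap, with a difference of 0.28 on the log2 scale (SE 0.09, edgeR adjusted p = 0.167, and 0.0619 with the axis term). TRIM4, a RIG-I ligase, lay lower in every IRF4-overexpressing library, at 34.4, 27.0 and 30.0 CPM, against 34.7, 36.6 and 38.0 CPM (log2 fold change -0.26, SE 0.11, edgeR adjusted p = 0.268). TRIM14, an adaptor at MAVS that lacks a RING finger, had 114, 49.1 and 50.9 CPM, against 80.3, 94.6 and 99.3 CPM, the pattern of TRIM25. TRIM26, which promotes turnover of IRF3, had 110, 62.4 and 57.1 CPM, against 88.4, 104 and 108 CPM. Log2 fold changes of TRIM8, TRIM23, TRIM27 and TRIM65, of which TRIM65 modifies the RNA sensor MDA5, were -0.26, 0.11, 0.18 and 0.12, and TRIM15 and TRIM31 were too weak to be tested.

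The spread of TRIM25 and TRIM14 was shared by other members. The axis side with IRF4-overexpressing replicate 1 and control replicates 2 and 3 was set against the other side after the group means were removed. On it, 8 of 35 tested TRIM genes (22.9%) stood more than 0.5 log2 units higher, against 10.9% of all tested genes (1315 of 12079). As far below stood 0 of the 35, and 153 of all 12079 tested genes. The 8 higher genes were TRIM46, TRIM25, TRIM62, TRIM66, TRIM14, TRIM44, TRIM56 and TRIM26. TRIM44, a family member without a RING finger, had 192, 83.6 and 92.6 CPM in IRF4-overexpressing replicates 1, 2 and 3, against 130, 149 and 165 CPM in control replicates 1, 2 and 3. Without IRF4-overexpressing replicate 1, 6 TRIM genes (17.1%) were called higher and 12 (34.3%) lower, against 20% and 25.3% of all tested genes. The 6 were TRIM22, TRIM27, TRIM34, TRIM38, TRIM55 and TRIM69. The 12 were TRIM4, TRIM8, TRIM14, TRIM24, TRIM25, TRIM26, TRIM32, TRIM33, TRIM41, TRIM44, TRIM56 and TRIM62, at -1.29 to -0.29 on the log2 scale. In that fit both remaining IRF4-overexpressing libraries lie on 1 side of the axis, with control replicate 1, and the other 2 control libraries lie on the opposite side, so group and axis are partly mixed. Within the sides TRIM25 differed by 0.04 and -1.04 log2 units, TRIM14 by 0.23 and -0.68, and TRIM44 by 0.29 and -0.56.

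**Figure D3:**
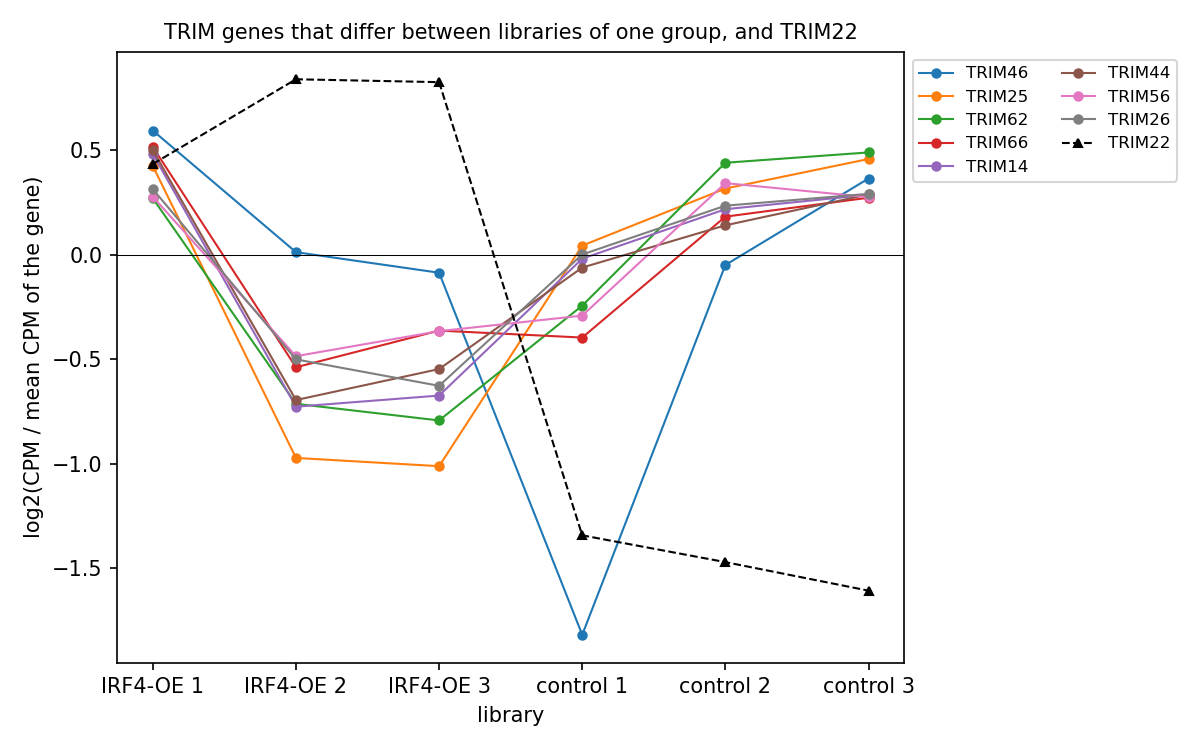
Log2 of CPM over the gene's mean CPM (vertical axis) in the 3 IRF4-overexpressing (IRF4-OE) and 3 control libraries for the 8 TRIM genes that follow the library axis and for TRIM22 (dashed); lines only join the points of a gene. The 8 genes are higher in IRF4-overexpressing replicate 1 than in replicates 2 and 3 and lower in control replicate 1 than in replicates 2 and 3, whereas TRIM22 is high in all 3 and low in all control libraries.

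Of the chromatin regulators of the TIF1 group, 0 of 3 passed (3.16% of all tested genes did). All 3 had values below 0, as did 5916 of all 12079 tested genes. TRIM33, which opposes SMAD signalling as a ligase of SMAD4, had 156, 129 and 142 CPM in IRF4-overexpressing replicates 1, 2 and 3, against 164, 162 and 168 CPM in control replicates 1, 2 and 3. The groups did not overlap (log2 fold change -0.21, SE 0.10, edgeR adjusted p = 0.279). TRIM24, a bromodomain coregulator and p53 ligase, had 90.7, 69.5 and 79.3 CPM, against 88.5, 97.0 and 103 CPM (log2 fold change -0.27, SE 0.12), and TRIM66 had -0.10 (SE 0.31). In the group with C-terminal NHL repeats, TRIM32 was the gene tested (log2 fold change -0.36, SE 0.19, edgeR adjusted p = 0.321), at 23.9, 15.1 and 15.2 CPM, against 22.9, 22.3 and 24.3 CPM. It passed without IRF4-overexpressing replicate 1, at -0.62 (edgeR adjusted p = 0.00125). TRIM2, TRIM3 and TRIM71 had 10, 62 and 1 counts over all 6 libraries.

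TRIM7, TRIM73 and TRIM62 complete the tested members with the smaller p-values, and none passed. TRIM7, which binds glycogenin, had 10, 11 and 13 counts in IRF4-overexpressing replicates 1, 2 and 3, against 8, 5 and 5 in control replicates 1, 2 and 3 (log2 fold change 0.70, SE 0.31, edgeR adjusted p = 0.304). TRIM73 had 0.49 (SE 0.22), and reads could have been split between it and its near-identical relative TRIM74. Its relative TRIM50 had no counts in any library. TRIM62, a regulator of epithelial polarity, had -0.59 (SE 0.34), and passed at -1.02 without IRF4-overexpressing replicate 1 (edgeR adjusted p = 0.00597). The other 12 tested genes, TRIM9, TRIM11, TRIM13, TRIM16, TRIM35, TRIM37, TRIM39, TRIM41, TRIM46, TRIM52, TRIM61 and TRIM66, had log2 fold changes of -0.16 to 0.46 and edgeR adjusted p-values of 0.513 to 0.968. TRIM39 shares reads with a readthrough gene, TRIM39-RPP21, which held 79.8% to 91.9% of its count.

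Over all 35 tested genes, every IRF4-overexpressing library lay above every control library for 7 (20%, against 13.5% of all tested genes), and below for 2 (5.71%, against 11.9%). The 7 were TRIM7, TRIM21, TRIM22, TRIM34, TRIM38, TRIM55 and TRIM69, and the 2 were TRIM4 and TRIM33. TRIM7 met the filter on low counts through its IRF4-overexpressing libraries alone. Without genes that met it through 1 group alone, the counts were 6 of 34 above (17.6%, against 12.4% of 11928 genes) and 2 below (5.88%, against 12%). Summed over the 70 genes, TRIM expression was 1732, 1410 and 1438 CPM in IRF4-overexpressing replicates 1, 2 and 3, against 1572, 1656 and 1712 CPM in control replicates 1, 2 and 3. These sums overlap, and replicate 1 of each group stood apart from the 2 others of its group.

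Levels differed far more between genes than between groups. Per kilobase of the deposited width and averaged over all libraries, TRIM44 was highest (31.2 CPM), followed by TRIM24 (20.7), TRIM25 (19.8), TRIM59 (19.4), TRIM65 (17.0) and TRIM14 (16.5). TRIM24, TRIM25 and TRIM59 do not differ beyond their spread over libraries, nor do TRIM65 and TRIM14. TRIM59, a membrane-anchored ligase, had 61.3, 79.4 and 79.8 CPM in IRF4-overexpressing replicates 1, 2 and 3, against 87.2, 69.5 and 73.1 CPM in control replicates 1, 2 and 3 (log2 fold change -0.06, SE 0.14). In control cells TRIM22 stood at 2.43 CPM per kilobase, near TRIM62 (2.32) and TRIM69 (2.00), and in IRF4-overexpressing cells at 11.04, near TRIM21 (10.8) and TRIM23 (10.3). The order depends on the width used: the deposited widths of TRIM26, TRIM27 and TRIM39, which lie on chromosome 6, were 8.76, 5.61 and 8.26 times the longest GENCODE transcript. On that transcript length TRIM26 reached 25.4 and TRIM27 19.3 CPM per kilobase, against 2.90 and 3.44 on the deposited width, and TRIM44 10.4, against 31.2. Averaged over all libraries, TRIM22 had 10.6 CPM per kilobase on the transcript length, against 6.74, and TRIM69 1.19, against 2.76. The places given above for TRIM22 and TRIM69 are therefore those on the deposited width.

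**Figure D4:**
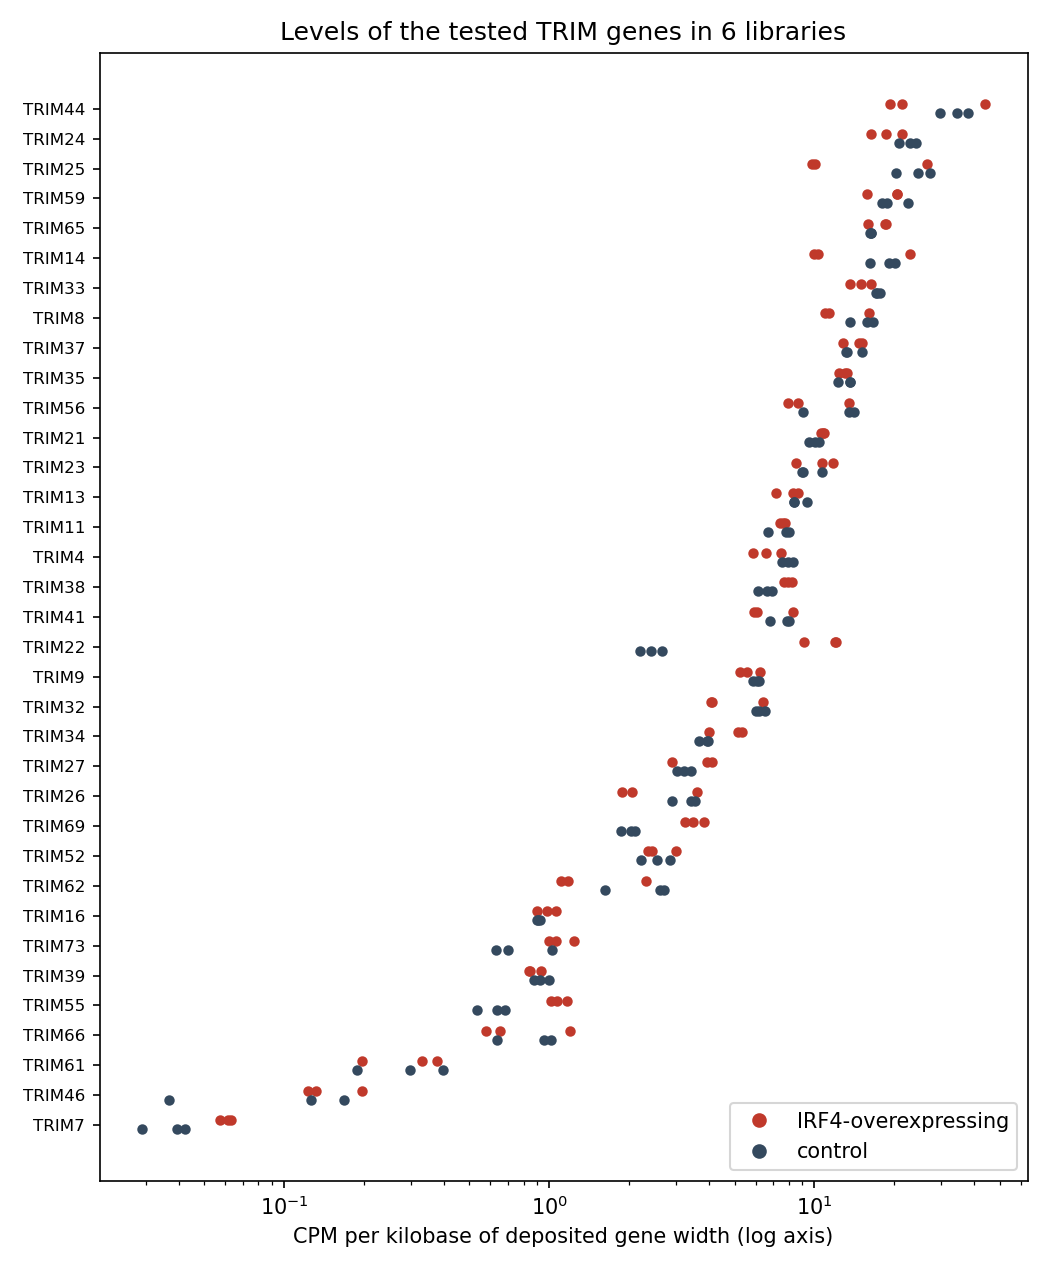
CPM per kilobase of the deposited gene width (log axis) of the 35 tested TRIM genes in each IRF4-overexpressing (red) and control (dark) library, ordered by the mean over all libraries. TRIM22 is the gene with the widest gap between the groups, at 11.04 and 2.43 on average, while most genes overlap.

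The other 35 TRIM genes were not tested. Of these, 22 had no counts in any library: TRIM15, TRIM36, TRIM40, TRIM42, TRIM43, TRIM43B, TRIM45, TRIM48, TRIM49, TRIM49B, TRIM49C, TRIM49D2, TRIM50, TRIM51, TRIM54, TRIM58, TRIM60, TRIM63, TRIM64, TRIM64B, TRIM68 and TRIM77. A count of 0 in every library allows up to 3 counts over all of them, for counting error only. They include 12 of the 13 genes on a list of TRIM42 and the recently expanded group around TRIM43, TRIM49 and TRIM64. Several of that group are near-identical copies. The remaining 13, TRIM2, TRIM3, TRIM5, TRIM6, TRIM10, TRIM17, TRIM29, TRIM31, TRIM47, TRIM64C, TRIM67, TRIM71 and TRIM72, had 1 to 62 counts in all. Of these, 12 had more counts in IRF4-overexpressing and 1, TRIM71, in control libraries, and together the 35 summed to 0.939 CPM in IRF4-overexpressing and 0.276 CPM in control cells. The 11345 other untested genes of the table also summed to more in IRF4-overexpressing cells, at 321 CPM, against 203 CPM in control cells. How many of these had more counts in IRF4-overexpressing libraries was not counted, so the 12 of 13 has no matching share.

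The genes that work with TRIM proteins were read from lists of sensing partners and of ubiquitin enzymes. Both lists were chosen with earlier results of these data known, so their shares are a description only. Among 14 tested sensing genes there were 3 that rose (21.4%, against 2.98% of all tested genes) and 0 that fell (0.182% of all tested genes), and the median change was 0.12 on the log2 scale. IRF7, the factor that amplifies interferon production, averaged 11.2 ± 1.39 CPM in IRF4-overexpressing and 2.82 ± 0.459 CPM in control cells (SD, n = 3 each; 4.01-fold, edgeR adjusted p = 0.00203). IFIH1, encoding the TRIM65 substrate MDA5, averaged 82.4 ± 3.39 and 41.5 ± 1.35 CPM (1.99-fold, edgeR adjusted p = 0.00218). RIGI, encoding the TRIM25 and TRIM4 substrate, averaged 17.2 ± 2.38 and 9.99 ± 0.507 CPM (1.72-fold, edgeR adjusted p = 0.0272), and lost its call in 5 of the 6 fits without a library (edgeR adjusted p = 0.0981 to 0.147, when any library but IRF4-overexpressing replicate 1 was left out). Their ligases TRIM25, TRIM4 and TRIM65 did not pass. MAVS, TBK1, IRF3 and IKBKE had log2 fold changes of -0.46, 0.22, 0.10 and 0.33, and STING1, the adaptor that TRIM56 and TRIM32 are known to modify, had no counts in any library.

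Among 14 tested E1 and E2 enzyme genes there were 2 that rose (14.3%, against 2.98% of all tested genes) and 0 that fell (0.182% of all tested genes). The median change was 0.02 on the log2 scale. Both genes that rose serve conjugation of ISG15, the interferon-induced ubiquitin-like modifier. UBA7, its activating enzyme gene, averaged 3.98 ± 0.484 CPM in IRF4-overexpressing and 1.27 ± 0.114 CPM in control cells (SD, n = 3 each; 3.12-fold, edgeR adjusted p = 0.00365). UBE2L6, its E2 gene, averaged 166 ± 9.44 and 97.6 ± 1.33 CPM (1.70-fold, edgeR adjusted p = 0.0061, and 0.0581 without control replicate 2). The E2 genes used by TRIM ligases, UBE2D1, UBE2D2, UBE2D3 and UBE2N, had log2 fold changes of 0.16, -0.01, -0.10 and 0.10. UBE2V1 and UBE2K had -0.68 and -0.65, with SEs of 0.40 and 0.42, and did not pass. Family members under other symbols did not pass either: PML, the organiser of nuclear bodies, MID1 and CMYA5 had 0.15, 0.67 and -0.09, and MID2, MEFV, TRIML1 and TRIML2 were too weak to be tested.

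**Figure D5:**
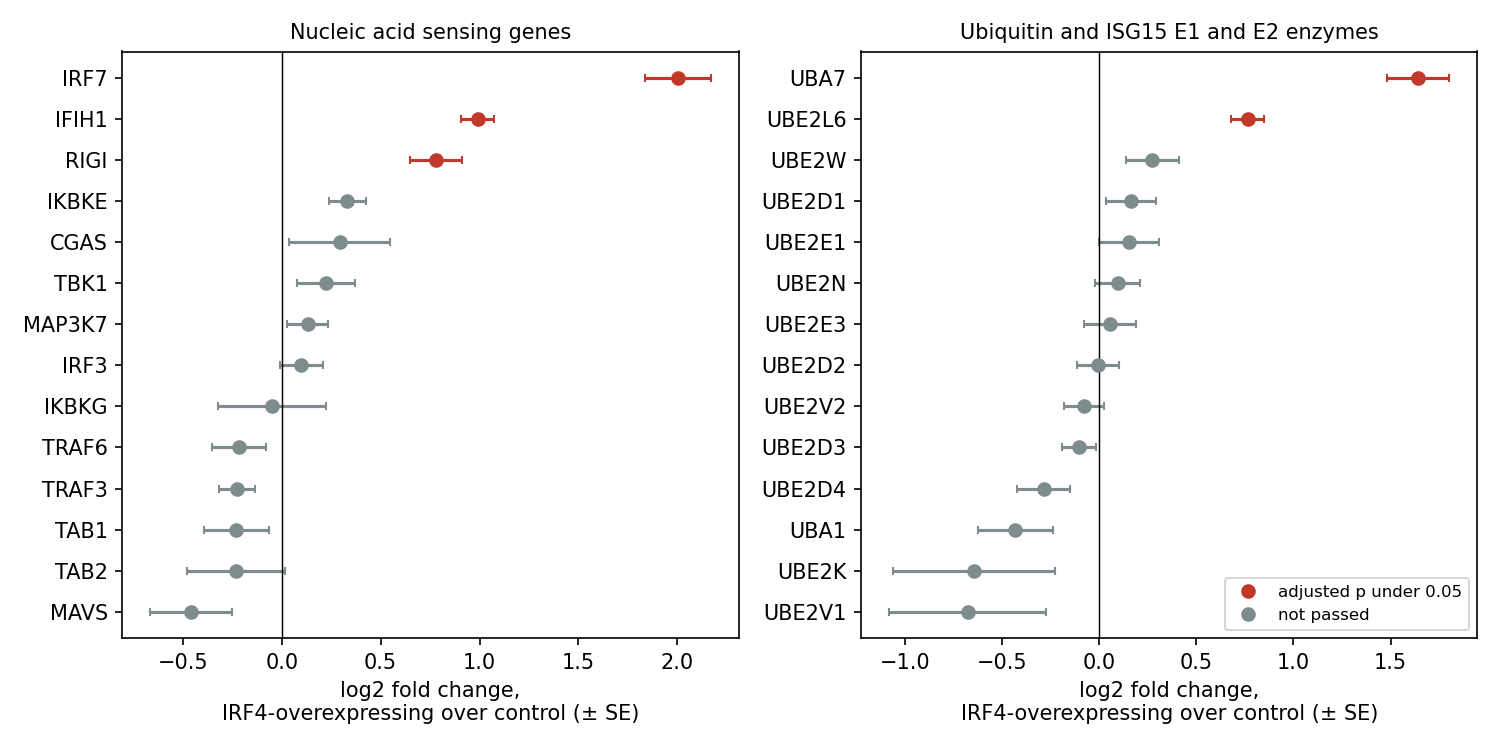
Log2 fold change (IRF4-overexpressing over control, ± SE) of the 14 tested nucleic acid sensing genes (left) and the 14 tested E1 and E2 enzyme genes (right). IRF7, IFIH1 and RIGI on the left and UBA7 and UBE2L6 on the right passed the test, and the other genes lie between -0.68 and 0.33.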

How the data were processed

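RNA was made into stranded mRNA libraries (Illumina TruSeq), per the labels' protocols. The authors deposited raw read counts per Entrez gene with no pooling, as the values show, and a gene width (another deposited column, in bases). In the table, the empty-vector controls carry the name WT. Per the submitters' processing notes the builds were mm9 and hg19; the aligner, counter and strand setting are not given in the sources used here, so overlapping and near-identical genes are uncertain. Symbols, for 23308 of 23459 rows, came from RefSeq (GRCh38.p14).

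Counts were tested with edgeR 4.0.16 (R 4.3.3): TMM scaling, filterByExpr, the two-sided quasi-likelihood F-test on group alone, and Benjamini-Hochberg adjustment over 12079 genes. SEs are the absolute log2 fold change over the root of F. Alternatives were median-ratio factors, library sizes alone, 2 other filters, DESeq2 1.42.0, limma-voom (limma 3.58.1), a replicate block, a library axis term, leaving out each library, and leaving out IRF4. The axis is the first principal component of log2 CPM (prior count 2) around group means. The library axis term is the side of each library, by the sign of its score, and is partly mixed with group. Since the axis was read from these counts, p-values with its term are too small. The fit was tested on simulated data.

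The members and lists were chosen with earlier results of these data known. Named genes were all called members, tested antiviral and signalling members, the 6 other smallest p-values, the 6 highest levels per kilobase, and called list genes. TRIM5 and the short promoter stretches were chosen after values were seen. Planned protein motifs were not run. Replicates within a group differed by more than sampling noise (chi-square per gene 6.74 to 200.2). Totals were 27681979 to 46210702 counts. Figures used matplotlib 3.10.9.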

Additional observations from a re-analysis of the deposited data

How the results depend on the processing

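Of the 491 alternative values for the 29 named genes, 24 lost a call, 14 gained one and 9 within-side values moved beyond the replicate spread. In all, 12 turned sign. Of these, 4 were in refits, where none passed. The other 8 were within the side of IRF4-overexpressing replicate 1, where no test was run (TRIM14, TRIM23, TRIM25, TRIM26, TRIM27, TRIM32, TRIM44 and TRIM65). TRIM23 was -0.0074 with the axis term, and TRIM59 was 0.037 with library sizes alone and -0.12 to 0.0475 without single libraries. Called TRIM genes numbered 1 to 6 higher and 0 to 12 lower without single libraries, both highest values being without IRF4-overexpressing replicate 1 and TRIM22 being called in all 6 fits. Over all genes, against 360 higher and 22 lower, there were 113 to 2421 and 3 to 3051 without single libraries, 577 and 175 with DESeq2, 709 and 389 with the axis term, and 13 lower with library sizes alone, a scaling under which the median gene stood at 0.10 on the log2 scale, against 0.01 with TMM. With the replicate block, 0 TRIM genes passed in either direction and 3 genes were higher and 0 lower in all, and TRIM22 had a log2 fold change of 2.18 (edgeR adjusted p = 0.0729). Same-numbered libraries deviated from their group means in opposite ways (correlations -0.65, -0.22 and -0.47). Most of that variance (74.3%) lay along the library axis, so these correlations cannot decide whether the numbers pair the samples. The labels do not say. In the 150 promoter bases nearest the start, 19.2% of tested TRIM promoters held the response element core, against 26.9% in the whole window. The planned search for the RING pattern in protein sequences was not run. Low counts limit TRIM7, which was tested, and TRIM5 and the other untested genes.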
